A study of Mus musculus with 9 samples.

Results

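Ubd encodes FAT10 (ubiquitin D), a ubiquitin-like protein made of a tandem pair of ubiquitin-like domains. The gene was followed here by the non-control probes whose accession belonged to mouse Ubd. There was 1 such probe, with 1 spot on each array, and it represented 1 of 22909 named genes (32991 probes) among 56601 probes measured. Its accession was NM_023137, and RefSeq placed the gene on chromosome 17, from 37193892 to 37196101 of GRCm38.p6, on the plus strand. Ubd was chosen because its signal was high in transplanted lungs and low in sham lungs on these same arrays. Its own levels are therefore described below with no test.

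The study examined left lungs from a mouse model of obliterative bronchiolitis (OB), the fibrous narrowing of small airways that follows lung transplantation. Lungs of C57BL/10 donor mice had been placed orthotopically into C57BL/6 recipients, which share the major histocompatibility type and differ in minor antigens, and the 6 allografts were taken on day 21 and divided by histology into 3 with OB and 3 without it (non-OB). The 3 sham lungs came from mice that had thoracotomy only and were taken on the same day, and all mice were male. Donors and recipients were used at 8 to 12 weeks of age, and the study's text gave no separate age for the sham mice. All 9 samples carry the same strain labels, although the study used both strains for the sham group, so an allograft could hold cells of donor and recipient whereas a sham lung was of 1 strain. The lungs were divided, with 1 specimen for histology and another for RNA, so the grouping rested on tissue that was not on the array. No group of syngeneic grafts was analysed here, so the effects of surgery, ischaemia and alloreaction cannot be told apart. RNA of each lung specimen was hybridised to 1 Agilent single-colour array. Levels below are log2 of the processed signal after each array was scaled to a common trimmed mean, and 1 unit is a 2-fold difference.

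FAT10 is attached to substrates by its own enzyme cascade, the E1 enzyme UBA6 and the E2 enzyme UBE2Z, and unlike most ubiquitin-like proteins it directs them to the proteasome. The gene is known to be induced by interferon gamma together with tumour necrosis factor, with NF-kB among the factors involved, and is also known in mature dendritic cells, B cells and thymus. It lies in the extended major histocompatibility region, beside olfactory receptor genes.

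The sequence upstream of the gene is shown because NF-kB is among the factors known to act on it. These are the 250 bases before the annotated start, at chr17:37193642-37193891 of GRCm38.p6 on the plus strand, from RefSeq, with the NF-kB motif match in capitals.
Ubd upstream: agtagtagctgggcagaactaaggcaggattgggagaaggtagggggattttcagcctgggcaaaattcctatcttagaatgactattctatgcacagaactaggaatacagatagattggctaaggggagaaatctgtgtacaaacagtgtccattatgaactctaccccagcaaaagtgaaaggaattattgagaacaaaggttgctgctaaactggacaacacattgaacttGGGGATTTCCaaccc
The match ran from 15 to 6 bases before the start. On either strand, 5.0% of 32851 mouse upstream windows of this length held the same motif, so a match of this kind is common. The interferon gamma-activated site TTCNNNGAA, present in 7.02% of windows, and the interferon-stimulated response element, present in 2.98%, were not found in these 250 bases. These are matches of letters, and binding was not measured.

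Ubd was far above background in every allograft and in no sham lung. The scaled levels were 11.79, 13.05 and 13.00 in OB lungs 1, 2 and 3. They were 12.06, 11.83 and 12.05 in the non-OB lungs. In the sham lungs they were 2.12, 2.03 and 3.13, and the scanner software did not call the spot well above background on any of these 3 arrays. The lowest allograft lay 8.66 log2 units above the highest sham lung. Neither allograft group overlapped the sham group. Of all named genes, 19.9% were higher in OB and 15.5% higher in non-OB lungs than in sham lungs with no overlap. No Ubd spot was saturated or marked as an outlier.

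**Figure D1:**
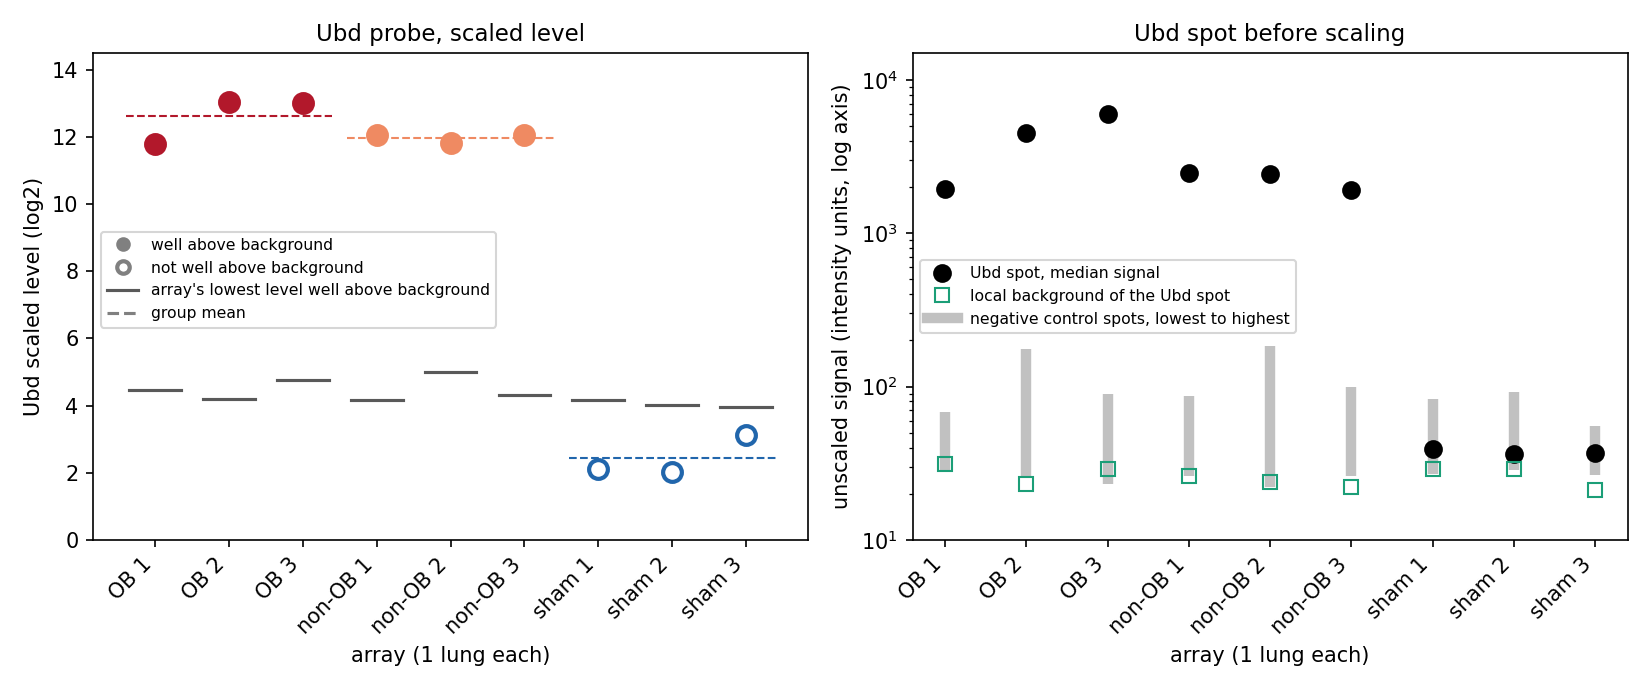
Left, scaled Ubd level (log2) on each of the 9 arrays, with filled points where the spot was well above background, open points where it was not, bars at the lowest level of that array well above background and dashed lines at the group means. Right, the unscaled median signal of the Ubd spot (intensity units, log axis) beside its local background and the range of 308 negative control spots: the 6 allograft spots stand between 1905 and 6019, and the sham spots, at 36.5 to 39, lie inside the range of the negative controls.

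The same separation was present in the unscaled signals. The median signal of the spot was 1946, 4505.5 and 6019 intensity units in the OB lungs and 2488, 2424 and 1905 in the non-OB lungs, over local backgrounds of 22 to 31 units. In the sham lungs it was 39, 36.5 and 37 units over local backgrounds of 29, 29 and 21. Of the 308 negative control spots on each array, 22, 50 and 21 were at or above the Ubd spot in sham lungs 1, 2 and 3, and none was in any allograft. The error that the scanner software attached to the processed signal was 10.0% in all 6 allografts, against 100%, 100% and 43.8% in the sham lungs. The sham values are thus readings near background, and they give only a bound on the level of Ubd in sham lung.

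In the processed signals, Ubd was at least 378-fold higher in OB lungs and at least 244-fold higher in non-OB lungs. The reference was the lowest signal well above background on the sham arrays. With each array left out in turn these bounds ran from 326-fold to 504-fold and from 236-fold to 257-fold. The measured means were 12.61 ± 0.71 (SD, n = 3) in OB, 11.98 ± 0.13 (SD, n = 3) in non-OB and 2.43 ± 0.61 (SD, n = 3) in sham lungs. The differences of the recorded means were 10.19 log2 units for OB and 9.55 for non-OB (SE 0.41 each), in comparisons that share the 3 sham lungs. After normexp background correction with quantile normalization they were 5.85 and 5.15. Those values are smaller than the bounds above, which hold for the processed signals alone. All these differences depend on sham readings near background, so the size of Ubd's difference is not ranked against other genes. The SDs of the OB and sham groups were several times that of the non-OB group. The RNA came from lung tissue with all its cells, so fewer cells of a type and less RNA per cell cannot be told apart in any result here.

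The levels of the OB and non-OB lungs overlapped. OB 2 and OB 3 were above all 3 non-OB lungs, whereas OB 1 was the lowest of the 6 allografts, 0.04 log2 units below the lowest non-OB lung. The OB mean was 0.64 log2 units above the non-OB mean (SE 0.41), which ranked 847 among the named genes. The OB lungs spanned 1.26 log2 units and the non-OB lungs 0.23. Without OB 1 the difference was 1.05, and without OB 2 it was 0.42. The highest allograft had 2.39 times the signal of the lowest.

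The arrays were spread over 4 slides. OB 1, non-OB 1, sham 1 and sham 2 shared slide 1, OB 2 and non-OB 3 shared slide 2, OB 3 and non-OB 2 shared slide 3, and sham 3 was on slide 4. On slide 1 Ubd was 0.27 log2 units lower in the OB lung than in the non-OB lung (1.20-fold). It was 1.00 higher in the OB lung on slide 2 (2.00-fold) and 1.18 higher on slide 3 (2.26-fold). As slides 1, 2 and 3 each held 1 lung of each allograft group, the difference of means of 0.64 was the same with slide as a block. Within slide 1, where allografts and sham lungs were together, Ubd was 9.72 log2 units higher in OB 1 and 9.98 higher in non-OB 1 than in the mean of the 2 sham lungs, both sham spots being near background.

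The enzymes and binding partners of FAT10 were examined next. None of the 11 measured genes of this group was called in either comparison with sham by limma, where a call needs a Benjamini-Hochberg adjusted p under 0.05 over all probes and at least a 2-fold difference. Over all named genes 3.82% were called higher and 3.73% lower in OB, and 2.52% higher and 1.13% lower in non-OB lungs. At an unadjusted p under 0.05, 2 of the 11 genes were higher in OB and 1 in non-OB lungs and none was lower. The methods' t-test, taken here and below at an unadjusted p under 0.05, gave 0 with the same fold threshold. The median difference of the group was -0.04 in OB and -0.02 in non-OB lungs, beside -0.05 and -0.01 over all named genes.

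Uba6, the E1 enzyme that charges FAT10, had levels of 7.55, 8.29 and 7.52 in OB, 7.40, 7.20 and 7.49 in non-OB and 7.13, 7.11 and 7.42 in sham lungs. Its OB lungs were all above the sham lungs, as held for 19.9% of all named genes. The mean difference was 0.57 (SE 0.24, limma adjusted p = 0.25), which did not pass the test. Ube2z, the E2 enzyme, differed from sham by -0.22 in OB and -0.17 in non-OB lungs (SE 0.19 each). Nub1, which brings FAT10 to the proteasome, differed by -0.20 and -0.13 (SE 0.18 each). Sqstm1, an autophagy receptor that binds FAT10, differed by -0.29 and -0.19 (SE 0.22 each), and Hdac6, which carries FAT10 to aggresomes, by 0.34 and 0.31 (SE 0.27 each). For these last 4 genes all adjusted p values were at least 0.467. Mad2l1, a spindle checkpoint protein bound by FAT10, was 0.91 higher in OB (SE 0.29, limma adjusted p = 0.126), and its second probe was called higher there, at 1.28 (adjusted p = 0.0329), so the probes of this gene disagreed.

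**Figure D2:**
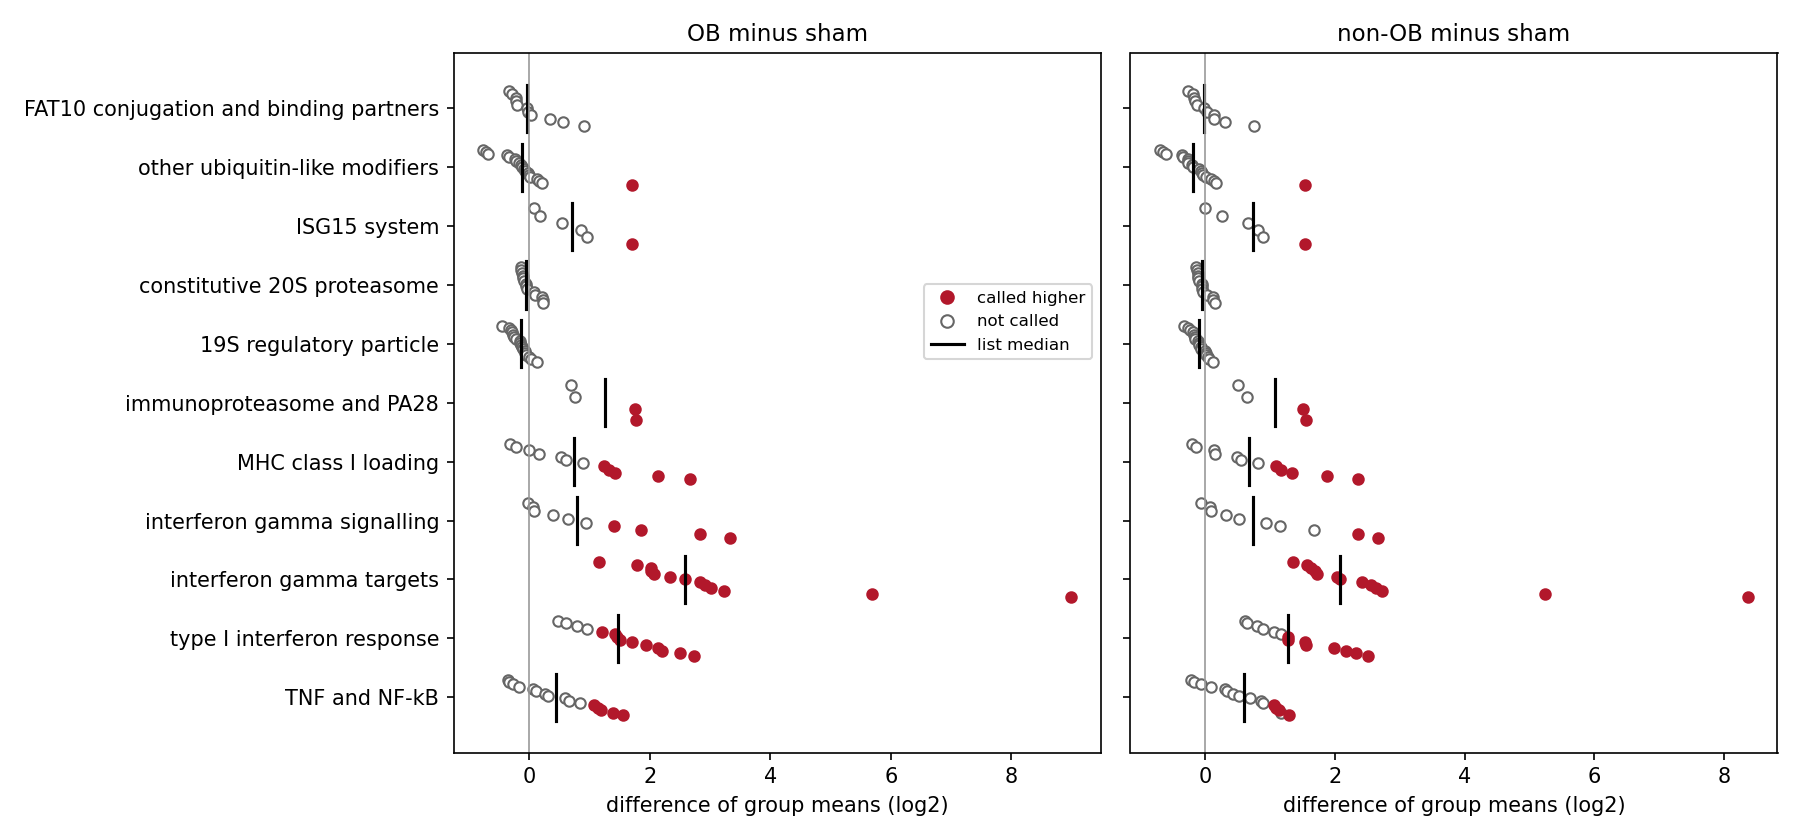
Difference of group means (log2) for each measured gene of the 11 pathway lists, OB minus sham on the left and non-OB minus sham on the right, with filled points for genes called higher, open points for genes not called and bars at the list medians. The 13 measured interferon gamma targets were all called in both comparisons, and no FAT10 partner and no constitutive proteasome subunit was. Over all named genes 3.82% were called higher in OB and 2.52% in non-OB lungs.

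Among the 19 other ubiquitin-like modifiers, Isg15 was the gene called higher in both allograft groups, and none was called lower. Over all named genes 3.82% were called higher in OB and 2.52% in non-OB lungs, so 1 of 19 is near the general share. Isg15, the interferon-induced modifier whose tandem domains resemble those of FAT10, had levels of 13.36, 14.08 and 13.73 in OB, 14.02, 13.47 and 13.17 in non-OB and 11.98, 12.03 and 12.01 in sham lungs. All 6 allografts were above all sham lungs. Of all named genes, 19.9% in OB and 15.5% in non-OB lungs were likewise higher than sham with no overlap. Isg15 was 1.71 higher in OB (SE 0.27, limma adjusted p = 0.0113) and 1.54 higher in non-OB lungs (SE 0.27, adjusted p = 0.0279). Without sham 2 the adjusted p became 0.053 in OB and 0.116 in non-OB lungs, where the call was also lost with the replicate number as a block (adjusted p = 0.0778) and without OB 3, non-OB 1, non-OB 2, sham 1 or sham 3. It was well above background in every sham lung, where the Ubd probe was not. The median difference of the 19 genes was -0.12 in OB and -0.19 in non-OB lungs. Of the 6 genes that conjugate or remove ISG15, Isg15 included, 1 was called. Usp18, the protease that removes ISG15, differed by 0.96 in OB lungs (SE 0.19, adjusted p = 0.0261), under the 2-fold threshold, and Uba7, its E1 enzyme, by 0.86 (SE 0.29, adjusted p = 0.147).

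The proteasome degrades FAT10 conjugates. None of the 14 constitutive subunits of the 20S core and none of the 18 subunits of the 19S regulatory particle was called by limma in either comparison with sham. Over all named genes 3.82% were called higher and 3.73% lower in OB, and 2.52% higher and 1.13% lower in non-OB lungs. A count of 0 among 32 genes is not far from these shares. At an unadjusted p under 0.05, 1 of the 19S subunits was lower in OB and no other of the 32 passed, and the methods' t-test gave 0. The core subunits ranged from -0.14 to 0.23 in OB and from -0.14 to 0.15 in non-OB lungs. Psmb8 and Psmb9, interferon-induced catalytic subunits of the immunoproteasome, were called higher in both allograft groups.

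Psmb8 had levels of 14.06, 14.19 and 14.12 in OB, 14.12, 13.66 and 13.84 in non-OB and 12.31, 12.33 and 12.47 in sham lungs. It was 1.76 higher in OB (SE 0.18, limma adjusted p = 0.00266) and 1.51 higher in non-OB lungs (SE 0.18, adjusted p = 0.00731). Psmb9 was 1.77 higher in OB (SE 0.17, adjusted p = 0.00228) and 1.55 higher in non-OB lungs (SE 0.17, adjusted p = 0.00582). The third of these subunits, Psmb10, differed by 0.68 and 0.50, and Psme1, a subunit of the PA28 activator, by 0.75 and 0.64, both under the 2-fold threshold. For all 4 genes every allograft was above every sham lung. Of all named genes, 19.9% in OB and 15.5% in non-OB lungs were likewise higher than sham with no overlap. The constitutive subunits replaced in the immunoproteasome differed by -0.13 (Psmb5), -0.14 (Psmb6) and -0.09 (Psmb7) in OB lungs, and the sign for Psmb5 and Psmb7 turned under quantile normalization.

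**Figure D3:**
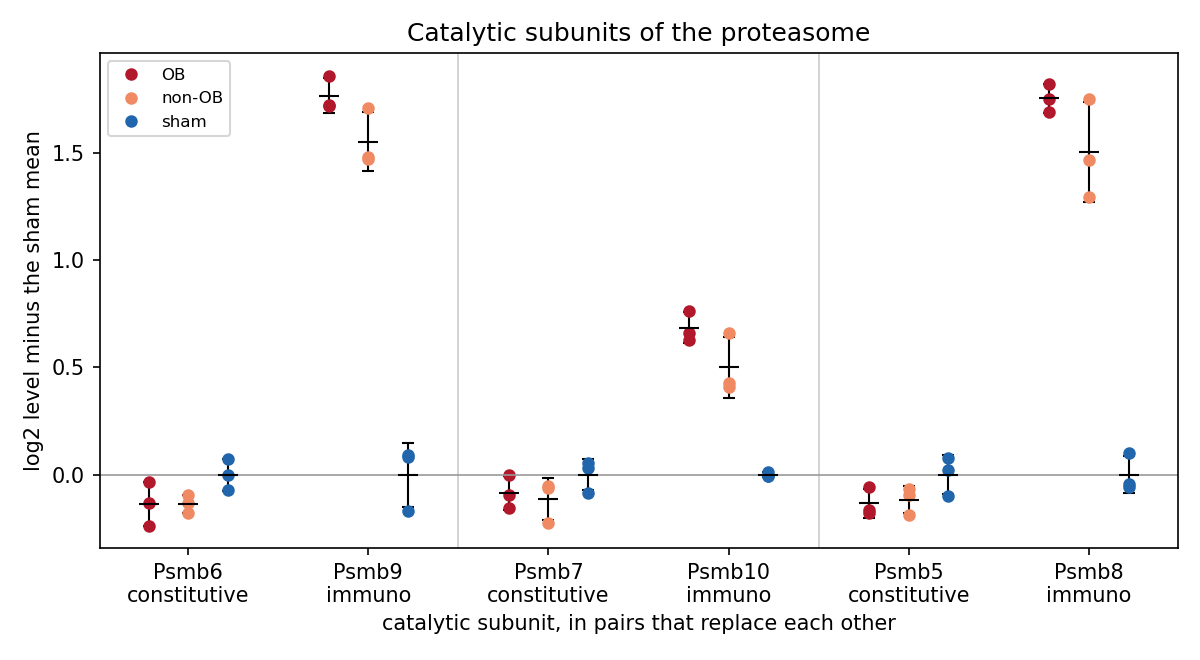
Level of the 6 catalytic proteasome subunits on each array (points), as log2 difference from the mean of the sham lungs for that gene, with group means and SD (bars, n = 3). Each constitutive subunit stands beside the immunoproteasome subunit that replaces it. Psmb8 and Psmb9 are separated from sham by 1.51 to 1.77 on average, Psmb10 by 0.50 to 0.68, and the constitutive subunits lie near 0.

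Of 12 genes that load peptides onto MHC class I, 5 were called higher in each allograft group, 7 were not called and none was called lower. The differences of the 12 ran from -0.32 to 2.67 in OB (median 0.75) and from -0.21 to 2.36 in non-OB lungs (median 0.68). Among all named genes 3.82% were called higher in OB and 2.52% in non-OB lungs. Tap1, which carries peptides into the endoplasmic reticulum, was 2.14 higher in OB (SE 0.23, limma adjusted p = 0.00315) and 1.88 higher in non-OB lungs (SE 0.23, adjusted p = 0.00819). Tap2 differed by 0.88 and 0.81 (SE 0.17 each), under the 2-fold threshold, and its second probe by 0.07 and 0.18. Nlrc5, the transactivator of class I genes, was 2.67 and 2.36 higher (SE 0.30 each, adjusted p = 0.00378 and 0.00954), although its second probe was not called. B2m, the light chain, rose by 1.23 and 1.08, and its call in non-OB lungs was lost with the replicate block (adjusted p = 0.0835). H2-K1 rose by 1.42 and 1.34. H2-D1 rose by 1.32 and 1.17, but class I genes are alike in sequence and their probes may share signal.

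The known inducers of Ubd were examined in turn. Ifng, which encodes interferon gamma, had levels of 9.56, 10.23 and 10.46 in OB, 9.84, 9.27 and 9.13 in non-OB and 6.17, 6.84 and 7.23 in sham lungs. It was 3.34 higher in OB (SE 0.36, limma adjusted p = 0.00307) and 2.67 higher in non-OB lungs (SE 0.36, adjusted p = 0.0109). Of the 10 genes of this signalling list 4 were called in OB, with Irf8 and Socs1 beside Ifng among them, and 2 in non-OB lungs. Among all named genes the shares called higher were 3.82% in OB and 2.52% in non-OB lungs. Without sham 2 the call of Ifng in non-OB lungs was lost, at 2.71 (adjusted p = 0.0553). Jak2, a receptor-bound kinase, differed by 0.93 in both (SE 0.23, adjusted p = 0.0545 and 0.0831) and Irf1 by 0.64 and 0.53, and neither passed. All 13 measured interferon gamma targets were called higher in both groups, with medians of 2.59 and 2.08. With the replicate block 9 of the 13 stayed called in non-OB lungs, and Gbp6, Ido1, Ciita and Nos2 did not. Among the 13 were Cxcl10, a chemokine for activated T cells, at 5.68 and 5.24 (SE 0.27 each), and the GTPase genes Gbp5, at 3.02 and 2.56, and Iigp1, at 3.23 and 2.72.

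For tumour necrosis factor the probes disagreed. The probe of Tnf with the higher signal gave levels of 7.47, 7.59 and 7.19 in OB, 7.38, 6.74 and 7.40 in non-OB and 7.07, 7.23 and 5.95 in sham lungs, which overlapped, and its differences of 0.66 and 0.42 (SE 0.36 each) did not pass the test. A second Tnf probe, well above background on 8 of the 9 arrays, was 3.24 higher in OB (limma adjusted p = 0.021) and 3.1 higher in non-OB lungs (adjusted p = 0.039). Of the 16 genes of the TNF and NF-kB list 5 were called higher in OB and 4 in non-OB lungs, and none lower. The shares called higher among all named genes, for this list and the type I interferon list below, were 3.82% and 2.52%. Tnfrsf1b, a TNF receptor, rose by 1.55 and 1.29, and the NF-kB subunit genes Relb and Nfkb2 rose by 1.19 and 1.13 and by 1.13 and 1.10, although a second probe of Nfkb2 was not called and one of Relb was called in OB lungs alone. With the replicate block 1 gene of this list, Tnfrsf1b, was called in non-OB lungs, and neither Relb (adjusted p = 0.08) nor Nfkb2 (adjusted p = 0.11) was. Tnfaip3, an inhibitor of NF-kB, was called in OB lungs, at 1.38, and in non-OB lungs differed by 1.16 (adjusted p = 0.0706). Rela differed by -0.35 and -0.22 and did not pass. Of the 14 measured genes of the type I interferon list, which holds Isg15, 10 were called in OB and 8 in non-OB lungs (3 with the replicate block), and the median differences were 1.48 and 1.28.

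Over the 11 lists together, 39 of 132 genes were called higher in OB and 34 in non-OB lungs against sham, and none was called lower. The shares called higher among all named genes were 3.82% in OB and 2.52% in non-OB lungs. All 34 were among the 39. The 5 others were Ifit3, Irf8, Socs1, Stat2 and Tnfaip3, and whether their change differed between the groups was not shown, since no gene of the lists was called between OB and non-OB lungs. In that comparison limma called 0% of all named genes, and none of the 132 passed an unadjusted limma p under 0.05. The methods' t-test, also unadjusted, gave 1 gene, Psmc3, at -0.09. Without sham 2 the count of 39 became 25. The count of 34 became 15 without sham 2, 18 without sham 1, 22 without sham 3, 21 without non-OB 1 and 21 with the replicate number as a block. With slide as a fixed block, where only slide 1 joins allografts and sham lungs, 1 of the 132 genes was called in OB, Cxcl9, at 9.52 (limma adjusted p = 0.0433), and 0 in non-OB lungs. Within slide 1 all 39 and all 34 genes were higher in the allograft than in the mean of the 2 sham lungs, with median differences of 1.76 and 2.18 beside 1.94 and 1.71 over all arrays. The arrays of slide 1 were part of the fit that called these genes, so this is a description and not a separate test.

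Genes with a pattern like that of Ubd were sought among those well above background in all 6 allografts, by the root mean square difference of log2 levels after each gene was centred on its own mean. Over the recorded values of all 9 arrays the 5 nearest of 14891 genes were Cxcl9, with a difference of 0.82, and 1810009J06Rik, Ccl20, Ccl1 and Lbhd2, with differences of 1.37 to 1.66. The order of these genes is not established, since the sham readings of Ubd and of 1810009J06Rik were not well above background. Cxcl9, an interferon gamma-induced chemokine that binds CXCR3 on T cells, had levels of 14.01, 14.04 and 13.52 in OB, 14.10, 12.68 and 12.91 in non-OB and 4.96, 4.74 and 4.88 in sham lungs. Unlike Ubd it was well above background in the sham lungs, so its differences of 9.0 and 8.37 (SE 0.36 each) were measured on both sides. The sham levels were still low, as the lowest levels well above background on those arrays were 4.17, 4.02 and 3.96. Ccl20 and Ccl1 are also chemokine genes. This likeness over 9 arrays rests mainly on the gap between allografts and sham lungs.

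Over the 6 allografts alone, where the low OB 1 and the high OB 2 and OB 3 set the pattern, other genes came first. Among 6273 genes that varied at least 0.5 times as much as Ubd, the nearest were Spic, at 0.14, Cx3cr1, at 0.16, Kcnj10, at 0.16, Gpr162, at 0.18, and P2ry13, at 0.21. Spic, a transcription factor of some tissue macrophages, had levels of 7.92, 9.06 and 8.97 in OB and 8.01, 8.08 and 8.36 in non-OB lungs. Cx3cr1, the fractalkine receptor of monocytes and macrophages, had 11.86, 13.03 and 12.88 in OB and 12.23, 12.20 and 12.20 in non-OB lungs. In these genes, as in Ubd, OB 1 was below all non-OB lungs and OB 2 and OB 3 were above them. Ifng differed between the lungs that shared a slide by -0.28, 1.10 and 1.19, OB minus non-OB, for slides 1, 2 and 3, beside -0.27, 1.00 and 1.18 for Ubd. The corresponding values were -0.09, 1.13 and 0.84 for Cxcl9 and -0.06, 0.36 and 0.46 for Psmb8. These are likenesses over few arrays, chosen from many genes, and are given as a description.

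**Figure D4:**
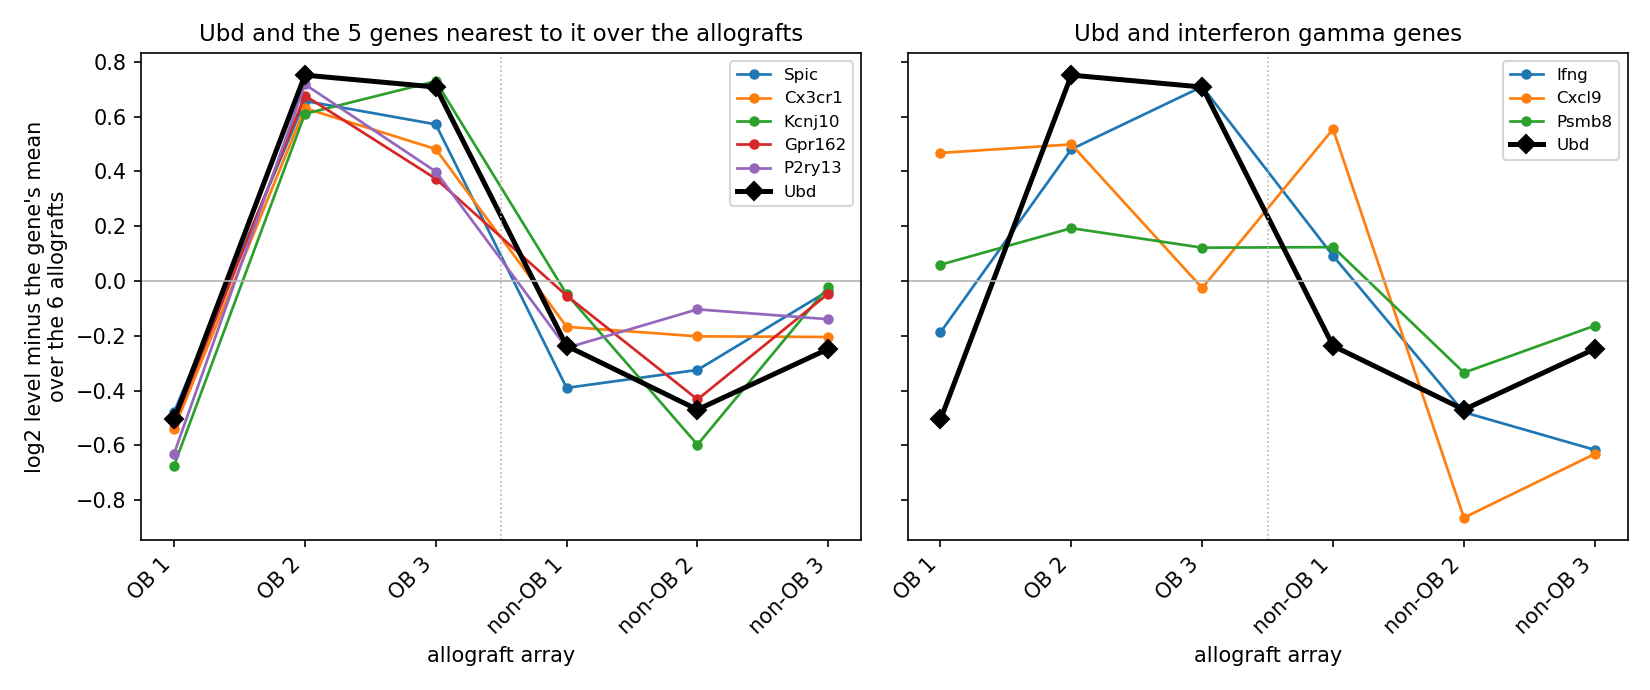
Log2 level of each gene on the 6 allograft arrays after subtraction of its own mean over them, with lines that only join the points of a gene. Left, Ubd (black) and the 5 genes nearest to it; right, Ubd and 3 interferon gamma genes (Ifng, Cxcl9 and Psmb8). Ubd is lowest in OB 1 and highest in OB 2 and OB 3, Ifng has the same highest pair of lungs, and Cxcl9 does not show the low value in OB 1.

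Markers of the cell types known for Ubd, and of tissues that a sample could hold, moved as follows. Over all named genes 3.82% were called higher and 3.73% lower in OB, and 2.52% higher and 1.13% lower in non-OB lungs. Of 12 mature dendritic cell markers 8 were called higher in OB and 7 in non-OB lungs. Their summed scaled signal was 64587 to 86538 in OB, 42395 to 62714 in non-OB and 20671 to 26141 in sham lungs, but Ccl5, a chemokine that T cells and natural killer cells also make, gave 47.7% to 75.3% of each sum. Without Ccl5, left out after the values were seen, the sums were 21380 to 22804 in OB, 19024 to 25667 in non-OB and 7329 to 10426 in sham lungs. Cd83, a surface protein of mature dendritic cells, rose by 1.92 and 1.80 and Il12b, a cytokine subunit that they make, by 2.94 and 2.90, whereas Ccr7, their homing receptor, differed by 0.58 and 0.87 and did not pass. Of 11 T cell markers 10 were called in OB and 6 in non-OB lungs (3 with the replicate block), and their sums were 60181 to 72941 in OB, 37632 to 56333 in non-OB and 13144 to 21588 in sham lungs. Of 10 macrophage markers 6 were called in OB and 5 in non-OB lungs, and their sums were 108902 to 122507, 74384 to 100074 and 30822 to 39836 in OB, non-OB and sham lungs. Of 7 plasma cell markers 3 were called in each group (1 in non-OB lungs with the replicate block), and their sums were 45155 to 73399, 51148 to 58550 and 31916 to 40237. None of 9 B cell markers was called by limma or the methods' t-test, none passed an unadjusted p under 0.05, and their sums of 10314 to 21821 in OB, 14823 to 26790 in non-OB and 11620 to 27700 in sham lungs overlapped. Each marker of these 5 lists was above background on at least 1 array, and the part of these cells in the level of Ubd was not tested.

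Thymus tissue was represented by 8 markers. Rag1, Rag2, Ptcra and Psmb11, which define developing thymocytes and cortical epithelium, were well above background on no array. Dntt, a polymerase of immature lymphocytes, was well above background on all 9 arrays and differed by 1.51 in OB (SE 0.43, limma adjusted p = 0.0913) and 0.25 in non-OB lungs, and Foxn1 was well above background on 1 array. The sums of the 8 markers were 313 to 655 in OB, 211 to 540 in non-OB and 110 to 146 in sham lungs. Aire and Prss16 were called higher in both groups, although with the replicate block both calls were lost in non-OB lungs and that of Prss16 in OB lungs. Neither was well above background in any sham lung, and they were at least 6.42-fold and 2.63-fold higher in OB and at least 5.29-fold and 2.81-fold higher in non-OB lungs. A second Aire probe was not called. Of 10 lung epithelial markers, all present as the lung label requires, none was called by limma or the methods' t-test. Their sums were 900112 to 1339696 in OB, 1113066 to 1572560 in non-OB and 1306209 to 1419942 in sham lungs, and at an unadjusted p under 0.05, 3 were lower in each comparison with sham. Cardiac muscle markers were lower in the allografts, with 6 of 8 called in OB and 7 in non-OB lungs (2 with the replicate block) and sums of 60196 to 172126 in sham against 3607 to 10279 in the allografts. The part of this tissue in the low Ubd signal of sham lungs was not tested.

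The genes beside Ubd on chromosome 17 were also measured. Of the 5 nearest measured genes on each side, Gabbr1, which encodes a subunit of the GABA-B receptor, and 9 olfactory receptor genes, limma called none in either comparison with sham. At an unadjusted p under 0.05, 0 passed in OB and 1 in non-OB lungs, Olfr92 (limma adjusted p = 0.286), which was well above background on 1 array. Their differences ran from -0.62 to 0.46 in OB and from -0.33 to 1.68 in non-OB lungs. Gabbr1 had levels of 8.58, 10.15 and 9.67 in OB, 9.12, 9.07 and 10.49 in non-OB and 9.36, 8.48 and 9.39 in sham lungs, which overlapped.

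Over the whole series, between 58.6% and 69.6% of spots were well above background on an array, and between 53 and 111 spots were marked as outliers. The scaling factors ran from 1.24 to 2.05. The number of arrays, 3 in each group, limits the precision of every value here.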

How the data were processed

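The study's authors hybridised RNA of 9 individual lungs (OB, non-OB and sham, 3 each, grouped by the GEO labels) to Agilent arrays and read them with Feature Extraction 12.0.3.1. The deposited scanner files hold background-corrected, processed signal intensity per spot. The authors scaled each array to a mean of 2500 after removal of 2% of the values at each end. The deposited value table holds these scaled intensities, and log2 was taken here. This scaling was recomputed here and matched that table. Probes were named by accession through RefSeq (GRCm38.p6), and a gene was represented by the probe with the highest mean level. Second probes are mentioned where their call differed, chosen after their values were seen; the probes of Oas2, Stat2, Cd80, Cd4, Myh6 and Ryr2 also gave different calls.

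limma 3.58.1 in R 4.3.3 fitted 3 group means to 56601 probes, with Benjamini-Hochberg adjustment. A call needed an adjusted p under 0.05 and a 2-fold difference (no fold for OB against non-OB). The procedure was tested on simulated data. A fold against a group not well above background is a bound against the lowest signal well above background of its arrays. It holds for the processed signals alone. Same-numbered non-OB and sham arrays deviated together (correlations of 0.157, 0.204 and 0.426 over 30208 probes), so the blocked count is given beside that comparison. Of these pairs, non-OB 1 and sham 1 shared slide 1 as well as a number. Non-OB 1 and sham 2, which shared slide 1 and not a number, had a correlation of 0.317. The other differently numbered pairs of these groups had correlations from -0.414 to -0.028. The labels do not say that a number marks a batch. Genes named were Ubd, up to 6 of each list by role, the nearest patterns and the neighbours. Members and lists were chosen with earlier results of these data known.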

Additional observations from a re-analysis of the deposited data

How the results depend on the processing

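The differences of Ubd from sham kept their direction under every scaling, filter, block and omission tried. Normexp background correction with quantile normalization, which adds an offset of 50 to the signals, reduced them to 5.85 in OB and 5.15 in non-OB lungs. With arrays left out in turn they ran from 9.97 to 10.60 in OB and from 9.35 to 9.90 in non-OB lungs, and the OB to non-OB difference from 0.42 to 1.05. Slide as a fixed block gave 1 called list gene in OB and 0 in non-OB lungs, and the cause was not tested. In non-OB lungs the count of 34 was 21 with the replicate block and 21 with only the 2 groups compared; in OB lungs the replicate block gave 35. Same-numbered arrays of OB and non-OB lungs had correlations of 0.489, -0.517 and 0.324 and those of OB and sham lungs 0.177, -0.404 and 0.331, with no common sign. The pairs numbered 1 also shared slide 1, and the others shared no slide. Among pairs that shared a slide and not a number, OB 2 and non-OB 3 had 0.614 and OB 1 and sham 2 had 0.506. OB 3 and non-OB 2 had 0.075. Leaving out arrays gave 25 to 38 genes in OB and 15 to 30 in non-OB lungs. Of 25 named list genes called in OB lungs 15 kept the call with any array left out, and of 22 in non-OB lungs 11 did. Those that did not in OB were Isg15 and B2m (without sham 2), Irf8, Socs1, Nos2, Tnfaip3, Nfkb2, Relb, Aire and Prss16, and in non-OB lungs H2-D1 and Ifng (without sham 2), Isg15, B2m, Ido1, Nos2, Tnfrsf1b, Nfkb2, Relb, Aire and Prss16 (without several single arrays). The methods' t-test, at an unadjusted p under 0.05, gave 39 in both comparisons and 1 lower gene in OB against non-OB. With Benjamini-Hochberg adjustment and no fold threshold, 1709 of all probes passed this t-test in OB and 0 in non-OB lungs. Differences that turned sign were all close to 0: Hdac6 in non-OB lungs with slide as a block (-0.0211), Psmb5 in OB under quantile normalization without and with normexp (0.0283 and 0.0646) and in non-OB lungs (0.0031 and 0.006), and Psmb7 in OB lungs (0.0657 and 0.0465). In sham lungs the Ubd spot was near background, which limits its fold changes to bounds.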
